A study of Mus musculus with 4 samples.

Results

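The effect of a guide for Usp5 on RNA levels was followed through 2 fractions of each lysate of Hepa 1-6 cells, a mouse hepatocellular carcinoma line: the lysate before precipitation (input) and the RNA brought down by a YTHDF1 antibody (RNA immunoprecipitation, RIP). The comparison rests on 4 of the 4 libraries of the study. The groups were input with the control guide (sgcontrol, genotype labelled WT), input with the Usp5 guide (sgUsp5, genotype labelled Usp5 Knockdown), and the YTHDF1 precipitate of each, with 1 library in each group. All groups share the cell line, and 10% of each lysate was kept as input. Whether the cells with a guide were a clone or a pool, and how long after the guide was introduced they were lysed, is not stated in the labels used here. Genes were taken as shifted when the ratio of Usp5 guide to control guide was at least 2-fold, in the same direction, in inputs and in RIP libraries, at a mean level of at least 4 on the log2 scale of CPM (read counts scaled to library size). This rule found 12 genes among the 6966 at that level, of 12920 genes compared.

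USP5 is a ubiquitin-specific protease that takes apart free chains of ubiquitin, which keeps the pool of single ubiquitin supplied and affects how fast other proteins are degraded. YTHDF1 is a cytoplasmic protein that binds mRNA carrying N6-methyladenosine and is known for its links to translation. The study's title joins them, with YTHDF1 stabilised by USP5, to the mTORC1 kinase complex and to the control of tumours by immune cells. A change in RNA level in cells with the guide would be seen in the input, and would carry over into the precipitate unless recovery of that RNA with the antibody changed as well. Both fractions of a guide come from 1 lysate, so agreement between them speaks to the scatter of library preparation only and does not replicate the knockdown.

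The libraries held between 29898171 and 33941019 counts. The deposited table lists genes by Ensembl ID without names, and the reference table used here paired 0 of the 53465 IDs with a symbol. For this reason Usp5 itself, as a check of the guide, the markers of hepatocytes and of other cell types, and the roles of the shifted genes are not described here, and no sequence of them is printed. At most 2 IDs are printed in each direction, and the other shifted genes are given by their ranges. The 4 printed are both higher genes, the lower gene with the largest ratios, and the lower gene with the most reads. They were chosen with their values known.

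Of the 12 shifted genes, 10 were lower and 2 were higher with the Usp5 guide, which is 0.144% and 0.0287% of the 6966 genes and 0.172% together. In opposite directions there was 1 gene (0.0144%). The lower genes had ratios between -3.64 and -1.03 in inputs and between -3.86 and -1.02 in RIP libraries on the log2 scale. The ratios of the 2 higher genes were 1.46 and 2.07 in inputs and 1.02 and 1.49 in RIP libraries. Since each group is 1 library, these differences have no replicate check, and the values that chose the genes are given as a description without a test.

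**Figure D1:**
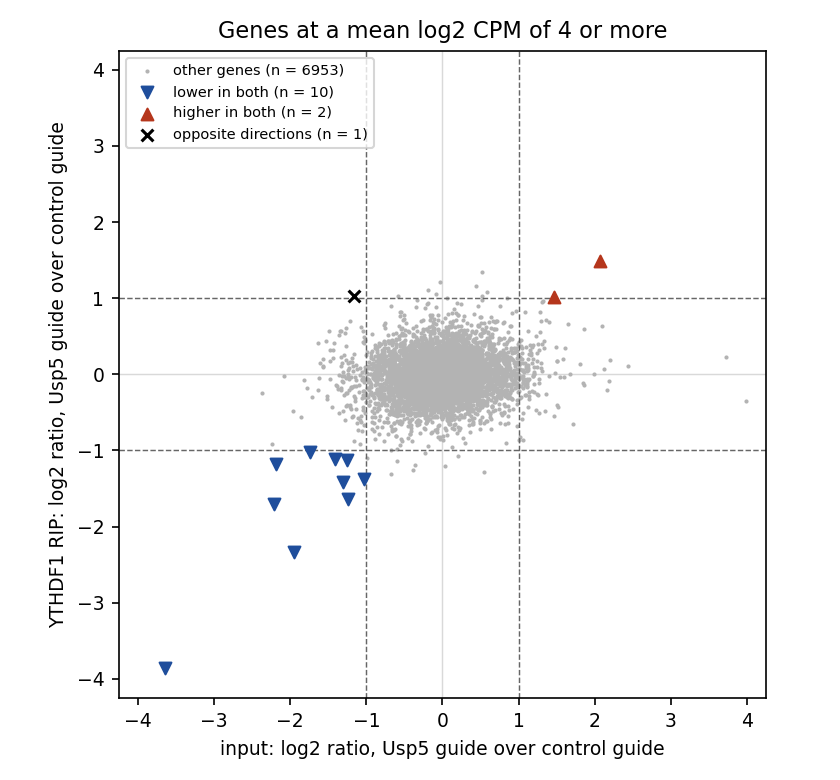
Log2 ratio of Usp5 guide to control guide in inputs (x axis) against the same ratio in RIP libraries (y axis), for the 6966 genes at a mean log2 CPM of 4 or more; dashed lines mark 2-fold. Triangles mark the 10 genes lower and the 2 genes higher in both fractions, the cross marks the 1 gene in opposite directions, and the gene at the lower left is ENSMUSG00000022464.

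ENSMUSG00000022464 had the largest ratio of the 12 genes in both fractions. Its reads numbered 4661 with the control guide and 403 with the Usp5 guide in inputs, and 2373 and 145 in RIP libraries. These are 163 and 13.1 CPM in inputs and 66.5 and 4.58 CPM in the precipitates. Both libraries of the Usp5 guide lay below both control libraries. Within a fraction this follows from the rule, and across fractions from ratios larger than the difference between the control libraries. The level was 12.5-fold lower in inputs, a log2 ratio of -3.64 (95% counting interval -3.79 to -3.49), and 14.5-fold lower in RIP libraries, a log2 ratio of -3.86 (-4.11 to -3.62). The intervals cover the counting of reads only. No molecular identifiers were described, so PCR copies of a molecule count separately. The difference between the fractions in this ratio was -0.22 on the log2 scale. RIP over input for this gene was -1.30 with the control guide and -1.51 with the Usp5 guide, so its RNA was under-represented in the precipitate with either guide.

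ENSMUSG00000054932 was the most abundant shifted gene, at a mean log2 CPM of 9.26. Its level was 1335 CPM in the control input and 563 CPM in the Usp5 guide input, and 771 and 247 CPM in the control and Usp5 guide precipitates. The level with the Usp5 guide was 2.37-fold lower in inputs and 3.13-fold lower in RIP libraries. The highest library of the Usp5 guide lay below the lowest control library. Within a fraction this order was set by the rule. It was set across fractions too, since control RIP over input was -0.79 on the log2 scale, less than 2-fold. The ratio differed between fractions by -0.40 on the log2 scale.

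The other 8 lower genes ranged over a mean log2 CPM from 4.08 to 8.71, with a median of 4.38. In inputs they had 762 to 24122 reads (median 945.5) with the control guide and 176 to 12704 (median 327.5) with the Usp5 guide. In the precipitates they had 1137 to 16975 reads (median 1415) with the control guide and 214 to 5810 (median 535) with the Usp5 guide. The gene at the upper end of each range is the same one, and it was 2.05-fold lower in inputs and 2.60-fold lower in RIP libraries. For all 10 lower genes, both libraries with the Usp5 guide were below both control libraries in CPM. The share of all genes at this level with such an order was not computed. The rule sets this order within a fraction. It also sets it across fractions unless the control libraries differ by 2-fold or more, so nothing is read from the order. Among these 10 genes the ratio was larger in inputs for 5 and larger in RIP libraries for 5. The difference between the fractions ranged from -0.40 to 1.01 on the log2 scale, with a median of 0.01. A choice by like ratios in both fractions favours small differences.

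The higher genes were of moderate abundance, at mean log2 CPM values of 4.48 and 5.83. ENSMUSG00000021950 was at 13.7 CPM in the control input and 57.5 CPM in the Usp5 guide input, and at 10.5 and 29.5 CPM in the precipitates. Its ratio was 4.21-fold in inputs and 2.80-fold in RIP libraries. ENSMUSG00000031503 was at 26.9 and 74.2 CPM in the control and Usp5 guide inputs and at 50.8 and 103 CPM in the precipitates, 2.75-fold and 2.03-fold higher. For ENSMUSG00000021950 both libraries of the Usp5 guide exceeded both control libraries, and for ENSMUSG00000031503 likewise. Within a fraction this order also follows from the rule. It does so across fractions too, since their control RIP over input was under 2-fold either way (log2 -0.38 and 0.91). In both the ratio was smaller in RIP libraries than in inputs, with differences of -0.58 and -0.44 on the log2 scale. Over the 6966 genes the log2 ratio also spread less in RIP libraries (SD 0.28) than in inputs (SD 0.47).

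**Figure D2:**
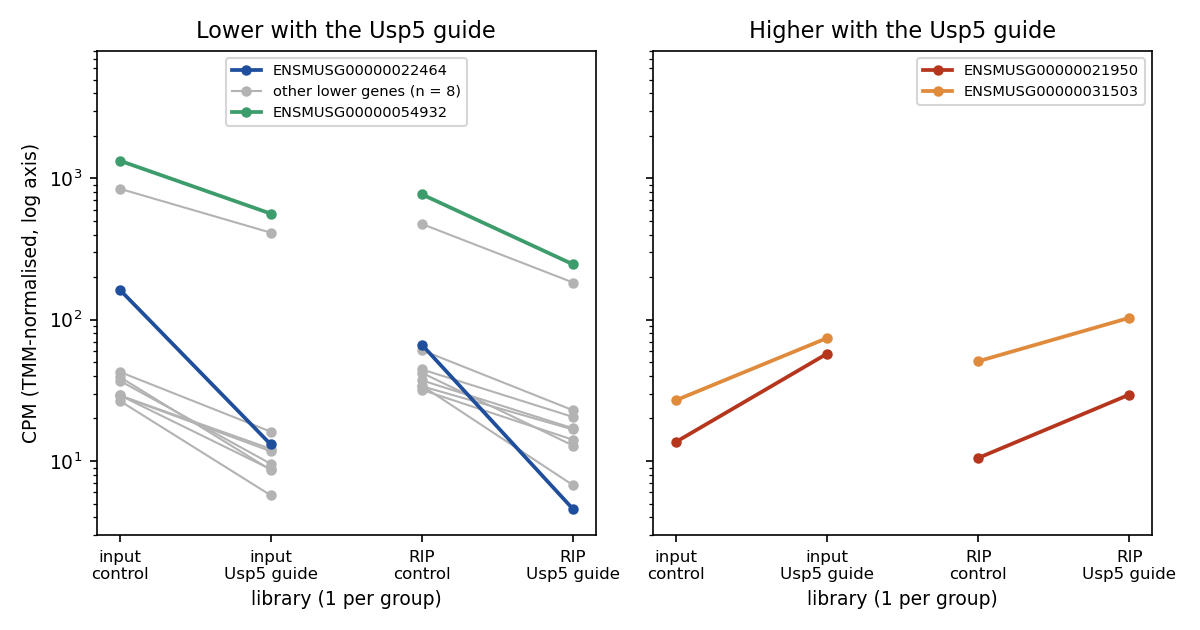
Level in CPM (log axis, TMM-normalised) of the 12 shifted genes in each of the 4 libraries; lines join the control guide to the Usp5 guide within a fraction, with no error bars because each group is 1 library. Among the 10 lower genes, ENSMUSG00000022464 has the steepest lines (163 to 13.1 CPM in inputs, 66.5 to 4.58 CPM in precipitates), and both higher genes differ less between the guides in the precipitate than in the input.

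The recovery of the shifted RNAs with YTHDF1 was then read as RIP over input within each guide. Of the 12 genes, 6 were above input and 5 below it with both guides, beside 39.3% and 42.1% of the 6966 genes, and 1 gene went from below to above. Recovery of at least 2-fold over input was seen for 1 gene with the control guide and for 1 with the Usp5 guide, and recovery at least 2-fold under input for 1 and 3 genes. Over the 6966 genes these shares were 10.2% and 7.58% over input and 11.2% and 8.47% under it. With 12 genes, nothing particular to the shifted ones is read from these counts. The ratio of RIP over input differed between the guides by 2-fold or more for 1 of the 12 genes, the one that crossed from below to above input, by 1.01 on the log2 scale, beside 5.61% of the 6966 genes. These values come from the libraries that chose the genes, and a choice by like ratios in both fractions favours small differences here.

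The threshold separates genes of nearly equal values. Just inside it, the lower gene with the smallest ratio had log2 ratios of -1.74 in inputs and -1.02 in RIP libraries, and ENSMUSG00000031503 was the nearest among the higher genes. Just outside it, the nearest lower genes had ratios of -0.998, -2.24 and -1.09 in inputs and of -1.10, -0.92 and -0.91 in RIP libraries. The nearest higher genes had ratios of 1.32, 1.31 and 0.85 in inputs and of 0.97, 0.95 and 1.01 in RIP libraries. At 1.5-fold in place of 2-fold, 49 genes were lower and 31 were higher (1.15% together), and 20 went in opposite directions.

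How far a ratio seen in 1 fraction was found in the other was asked next. At a mean log2 CPM of 4 or more, 140 genes were higher (2.01%) and 144 lower (2.07%) by 2-fold between the inputs, and 13 were higher (0.187%) and 19 lower (0.273%) between the RIP libraries. The 10 shared lower genes make up 6.94% of the inputs' list and 52.6% of the RIP list, and the 2 shared higher genes 1.43% and 15.4%. Of the 144 genes lower in inputs, 94 (65.3%) were below 0 in RIP libraries, with a median log2 ratio there of -0.12. Of the 140 genes higher in inputs, 80 (57.1%) were above 0 there, with a median of 0.05. Over all 6966 genes 53.2% had the same sign in both fractions. From the other side, 16 of the 19 genes lower in RIP libraries were below 0 in inputs (median -1.03), and 8 of the 13 higher ones were above 0 (median 0.44). Inputs and RIP libraries share no library, but they share the lysate.

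The same shares are given by abundance, without a test. Between a mean log2 CPM of 4 and 5 (1840 genes), 59.7% of the 186 genes past 2-fold in inputs had the same sign in RIP libraries, and 9 passed 2-fold there. Between 5 and 6 it was 57.9% of 76 genes, with 1 past 2-fold. Between 6 and 8 it was 14 of 17 genes, with 0 past 2-fold, and at 8 or more all 5 genes, with 2 past 2-fold. The upper 2 classes thus rest on 17 and 5 genes. Over all genes of a class the share with the same sign was 52.6%, 51.5%, 54.6% and 53.9% in the same order. The 2 genes past 2-fold in the highest class are ENSMUSG00000054932 and the most abundant of the other 8 lower genes. The SD over genes of the log2 ratio went from 0.63 to 0.29 in inputs and from 0.37 to 0.20 in RIP libraries between the lowest and the highest of these classes. Pearson's r between the fractions' ratios was 0.154 over the 6966 genes and 0.272 over the 736 genes at 8 or more (Spearman's rho 0.116 and 0.180). These are correlations across genes, which are not independent replicates and which share libraries.

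**Figure D3:**
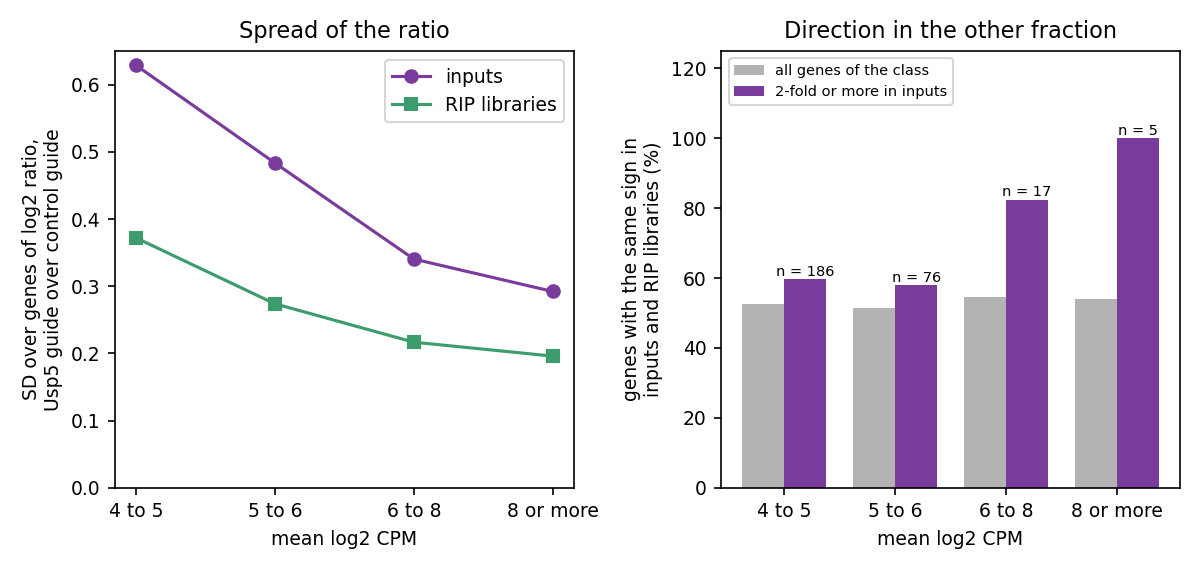
Left, SD over genes of the log2 ratio of Usp5 guide to control guide in inputs and RIP libraries, by class of mean log2 CPM; right, percent of genes with the same sign in both fractions, for all genes of a class and for those past 2-fold in inputs (n above the bar). The spread in inputs falls from 0.63 to 0.29, and the share with the same sign among genes past 2-fold in inputs is 59.7% of 186, 57.9% of 76, 14 of 17 and all 5 genes, beside 51.5% to 54.6% of all genes of a class.

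A fit over the 4 libraries with guide and fraction as terms set the difference between guides against the disagreement between fractions (edgeR's quasi-likelihood test, 1 residual degree of freedom). It compares 2 lysates, not 2 conditions, since neither lysate was replicated. At a Benjamini-Hochberg adjusted p under 0.05, 3 of the 12920 genes (0.0232%) were lower and 0 were higher. Without adjustment, 612 genes (4.74%) had a p under 0.05, of which 358 were lower and 254 higher. All 3 called genes are among the 10 lower ones: ENSMUSG00000022464, ENSMUSG00000054932 and the most abundant of the other 8. The rule used the same contrast, so nothing is read from this overlap. DESeq2 called 10 genes lower and 12 higher, and limma-voom 50 and 25, and the 3 genes were among those of each. With the test limited to the 6966 more abundant genes, edgeR called 21 genes lower and 16 higher.

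Below the level used for the rule, presence and absence was examined over all IDs. At least 10 reads in both libraries of the Usp5 guide and 0 in both control libraries were found for 58 genes, and the reverse for 87 genes. The crossed patterns, with at least 10 reads in the input of one guide and the precipitate of the other and 0 in the remaining libraries, were found for 63 and 60 genes. Thus 145 genes had reads with 1 guide alone in both fractions, beside 123 in crossed patterns, where the guides differ in opposite directions between the fractions. With counts this near each other, nothing about the guide is read from the 145. None of the 145 genes had more than 277 reads in any library, and their mean log2 CPM lay between -3.79 and -2.34. The 0 counts that chose these genes lower this mean, so it does not give their level where detected. A count of 0 allows up to 3 counts, or between 0.0841 and 0.105 CPM in these libraries, for counting error only.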

How the data were processed

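Libraries were made from fragmented RNA depleted of ribosomal RNA, with random primers, template switching and PCR, per the labels' protocols. The table the authors deposited holds raw counts of reads for each gene. HISAT2 2.1.0, featureCounts 1.6.3 and the mm10 genome are listed in the submitters' processing notes. The annotation release and the handling of strand, multiple matches and duplicates were not stated, so reads of overlapping or near-identical genes may be split or lost. TMM factors (edgeR 4.0.16, R 4.3.3) were taken over all 4 libraries, and genes averaging 1 CPM or more were compared. For log2 ratios 0.5 counts, scaled to library size, were added first. Counting intervals are exact binomial (Clopper-Pearson) at 95%. The fit across genes was edgeR's quasi-likelihood test with fraction as a block, with DESeq2 1.42.0 and limma 3.58.1 as alternatives. The code was run on simulated counts with large set changes and less scatter than the fit found here. That run checks the code only, not how the rule performs on these data. The 34 gene lists written by symbol were not used, since 0 IDs were paired with one. The rule for single genes took Usp5, Ythdf1, every shifted gene and the 3 genes in each direction nearest outside 2-fold, with at most 2 unnamed IDs printed in each direction. Members, lists and alternatives were chosen with earlier results of these data known.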

Additional observations from a re-analysis of the deposited data

Results flagged for a closer look

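At a mean log2 CPM of 4.10, 1 gene passed 2-fold in opposite directions in the 2 fractions. It had 650 and 314 reads in the control and Usp5 guide inputs, a log2 ratio of -1.16, and 477 and 868 reads in the precipitates, a log2 ratio of 1.03. The difference between the fractions was not tested, since each has 1 library per guide.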

How the results depend on the processing

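With DESeq2 size factors, upper-quartile factors, library totals or 2 counts added, the genes shifted in both fractions numbered 9 or 10 lower and 2 higher. Under the first 3 of these, 11 of the 12 genes remained, and under the last all 12. Asking also for counting intervals that exclude 1 in both fractions left 10 and 2. The 2-fold rule and the read counts at this level largely fixed that outcome in advance. None of the 32 ratios recomputed for the 4 genes given by ID changed sign. Genes chosen past 2-fold in both fractions could hardly do so, and nothing is read from this. Of these ratios, 1 moved outside its counting interval: the input ratio of ENSMUSG00000054932 was -1.18 with library totals. The abundance limit and the fold set the counts, and the number of genes compared changes with the limit. In the order lower, higher, opposite, a mean log2 CPM of 5 or more gave 2, 1 and 0, and one of 3 or more gave 16, 10 and 5. A mean CPM of 1 or more alone, over 12920 genes in place of 6966, gave 222, 217 and 331. Over the 6966 genes, 1.5-fold gave 49, 31 and 20. Inputs alone gave 144 lower and 140 higher, and RIP libraries alone 19 and 13. The fit with fraction as a block called 3 lower and 0 higher, 2 lower with library totals, and 1 lower with 10 reads in all as the filter. It called 21 lower and 16 higher among genes at a mean log2 CPM of 4 or more, DESeq2 10 and 12, and limma-voom 50 and 25. With no replicate block (fraction left out), 0 genes were lower and 0 higher with edgeR's quasi-likelihood test, with 49 and 55 at an unadjusted p under 0.05. The cause of these differences was not tested. Leaving out 1 library leaves a single fraction to compare and no residual degree of freedom. Settings for Usp5, Ythdf1 and the gene lists were not run, because the IDs carry no names.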
